A study of Mus musculus with 5 samples.

Results

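Lifr, Il6st, Jak1, Stat3, Socs3, Pim1, Pim3, Junb and Gbx2 make up the LIF receptor, its signalling chain to Stat3 and a group of genes that respond to it in mouse embryonic stem cells. All probe sets annotated with exactly 1 of these gene symbols were taken. They comprised 24 probe sets for 9 genes, out of 45037 probe sets other than array controls and 18193 genes with a probe set of their own. Of the 24, 23 passed a filter on low values and were among the 29001 probe sets tested, and 21 of these lay above the filter on all 5 arrays. The filter kept a probe set that exceeded the 40th percentile of its array on at least 1 array, a level between 3.03 and 3.12 on the log2 scale.

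The study asked which genes depend on Tet1, an enzyme that oxidises 5-methylcytosine in DNA to 5-hydroxymethylcytosine, by comparing RNA of control and Tet1-depleted embryonic stem cells on Affymetrix arrays. There were 5 groups with 1 array each, so no group has a replicate. J1 cells, grown on mouse embryonic fibroblast feeders, were transfected with a control siRNA or a Tet1 siRNA and collected 4 days later. E14 cells, grown without feeders, were infected with lentivirus for a scramble shRNA, Tet1 shRNA3387 or Tet1 shRNA2863 and collected after puromycin selection for 4 days. The labels name no engineered allele in either line, and all depletion was by RNA interference. Line, feeders and mode of depletion therefore differ together between J1 and E14 and cannot be told apart, and the combination is called the system below.

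Leukaemia inhibitory factor (LIF) is the cytokine that keeps mouse embryonic stem cells undifferentiated in culture. It joins the LIF receptor chain Lifr to the shared chain gp130, encoded by Il6st, and Janus kinases bound to these chains, Jak1 among them, then phosphorylate the transcription factor Stat3. Phosphorylated Stat3 enters the nucleus and raises transcription of genes such as Socs3, a feedback inhibitor of the receptor complex, the kinase genes Pim1 and Pim3, the AP-1 subunit Junb and the homeobox gene Gbx2. Arrays of total RNA measure none of the phosphorylation steps.

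The upstream sequences of the 3 genes whose bright probe sets were lower on all depleted arrays by the largest amounts are shown first, because Tet1 acts on the cytosines of CpG dinucleotides. Each is the 250 bases before a RefSeq gene start on GRCm38.p6, written 5′ to 3′ on the gene's strand, with every CpG in capitals. The Gbx2 window is chr1:89931177-89931426 on the minus strand, the Pim1 window chr17:29490535-29490784 on the plus strand and the Pim3 window chr15:88861944-88862193 on the plus strand.
Gbx2: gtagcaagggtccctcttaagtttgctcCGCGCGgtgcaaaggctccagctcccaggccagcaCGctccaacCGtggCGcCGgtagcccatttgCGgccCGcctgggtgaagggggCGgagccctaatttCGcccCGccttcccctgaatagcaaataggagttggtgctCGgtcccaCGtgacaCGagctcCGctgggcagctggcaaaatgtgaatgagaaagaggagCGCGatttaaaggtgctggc
Pim1: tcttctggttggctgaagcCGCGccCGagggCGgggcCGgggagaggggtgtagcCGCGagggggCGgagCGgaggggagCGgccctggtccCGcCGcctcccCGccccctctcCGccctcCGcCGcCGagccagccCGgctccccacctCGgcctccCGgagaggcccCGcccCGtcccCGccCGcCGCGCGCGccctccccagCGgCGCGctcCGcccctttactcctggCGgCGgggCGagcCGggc
Pim3: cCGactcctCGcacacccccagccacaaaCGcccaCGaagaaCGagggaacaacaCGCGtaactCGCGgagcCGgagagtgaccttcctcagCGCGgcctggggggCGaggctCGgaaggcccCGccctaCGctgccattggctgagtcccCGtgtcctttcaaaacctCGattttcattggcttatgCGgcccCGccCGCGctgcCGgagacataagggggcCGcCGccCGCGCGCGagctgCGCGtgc
These windows held 18, 36 and 31 CpG dinucleotides, against a median of 6 over 32851 upstream windows of 27025 genes. As many or more CpG were found in 21.7% of all windows for the Gbx2 count, in 2.6% for the Pim1 count and in 5.2% for the Pim3 count. A further Pim1 start, with the window chr17:29492835-29493084, held 4. The windows of the other members held 43 and 3 for Lifr, 26 for Il6st, 26 for Socs3, 20 for Junb, 19 for Jak1 and 13 for Stat3. The 3 genes shown thus do not stand apart from the other members by CpG count. Whether this count bears on the differences below was not tested. All 9 genes matched the RefSeq table, with 11 windows, and 9 of the 11 held more CpG than the median window. No cytosine modification was measured on these arrays.

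The letters TTCNNNGAA, the palindromic core recognised by STAT dimers and therefore the same on both strands, were searched in the same windows. They occurred in 2306 of 32851 windows, or 7.02%, and in 1 of the 11 windows of these genes. That window belongs to Socs3, chr11:117969367-117969616 on the minus strand, which also held 26 CpG. The match begins 154 bases before the gene start, and its surroundings, chr11:117969487-117969545, are shown with the match in capitals because Socs3 is the feedback gene of the chain.
Socs3: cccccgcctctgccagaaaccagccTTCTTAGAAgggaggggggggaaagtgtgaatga
The match describes these letters only, and the other 10 windows do not hold them within 250 bases.

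Values are the deposited log2 signals. Levels are compared within a probe set, apart from sums and medians over markers and medians over the probe sets of a gene. Medians over all non-control probe sets lay between 3.45 and 3.52, and correlations between pairs of arrays ran from 0.966 to 0.996. Tet1 itself, at its brightest probe set, read 10.85 and 8.31 on the J1 control and Tet1 siRNA arrays, a 5.82-fold lower signal. In E14 it read 10.95 with scramble, 9.24 with shRNA3387 and 10.06 with shRNA2863, 3.27-fold and 1.85-fold lower. At 2 further probe sets above the filter Tet1 was 2.87-fold and 7.16-fold lower in J1, 3.48-fold and 5.28-fold lower with shRNA3387, and 2.01-fold and 2.27-fold lower with shRNA2863, so the order of J1 and shRNA3387 depends on the probe set. The 7 markers of embryonic stem cells lay above the filter on all arrays, and all 7 were lower after Tet1 siRNA in J1, with a median difference of -0.46. Among 8 trophectoderm markers the summed linear signal was 7757.3 on the J1 control array and 11381.6 after Tet1 siRNA, and 2340.5, 1779.3 and 3665.3 on the scramble, shRNA3387 and shRNA2863 arrays. The 8 primitive endoderm markers summed to 524.8 and 709.9 in J1 and to between 308.3 and 339.9 in E14. These sums rest mostly on Krt8 and Krt18 for trophectoderm and, in J1, on Col4a1 for primitive endoderm. Between the control arrays, 3 trophectoderm markers were higher and 5 lower in E14, and 4 primitive endoderm markers were higher and 3 lower. After Tet1 siRNA in J1, 7 trophectoderm markers were higher and 1 lower, and 6 primitive endoderm markers were higher and 2 lower. Of 19 fibroblast feeder markers measured, 13 to 15 lay above the filter on each array, the sum was 548.4 and 528.6 in J1 and 457.2 to 510 in E14, and Col6a1, Dcn, Postn and Pdgfra, the last also a primitive endoderm marker, lay below it on all 5. The feeder marker Col1a2 read 6.24 and 5.95 in J1 and 3.59 to 3.62 in E14, but most feeder markers did not share this direction. Between the control arrays, 14 of the 19 were higher and 5 lower in E14, with a median difference of 0.04. Whether these marker levels bear on the differences below was not tested. In such bulk RNA, fewer cells of a type and less RNA per cell cannot be told apart.

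**Figure D1:**
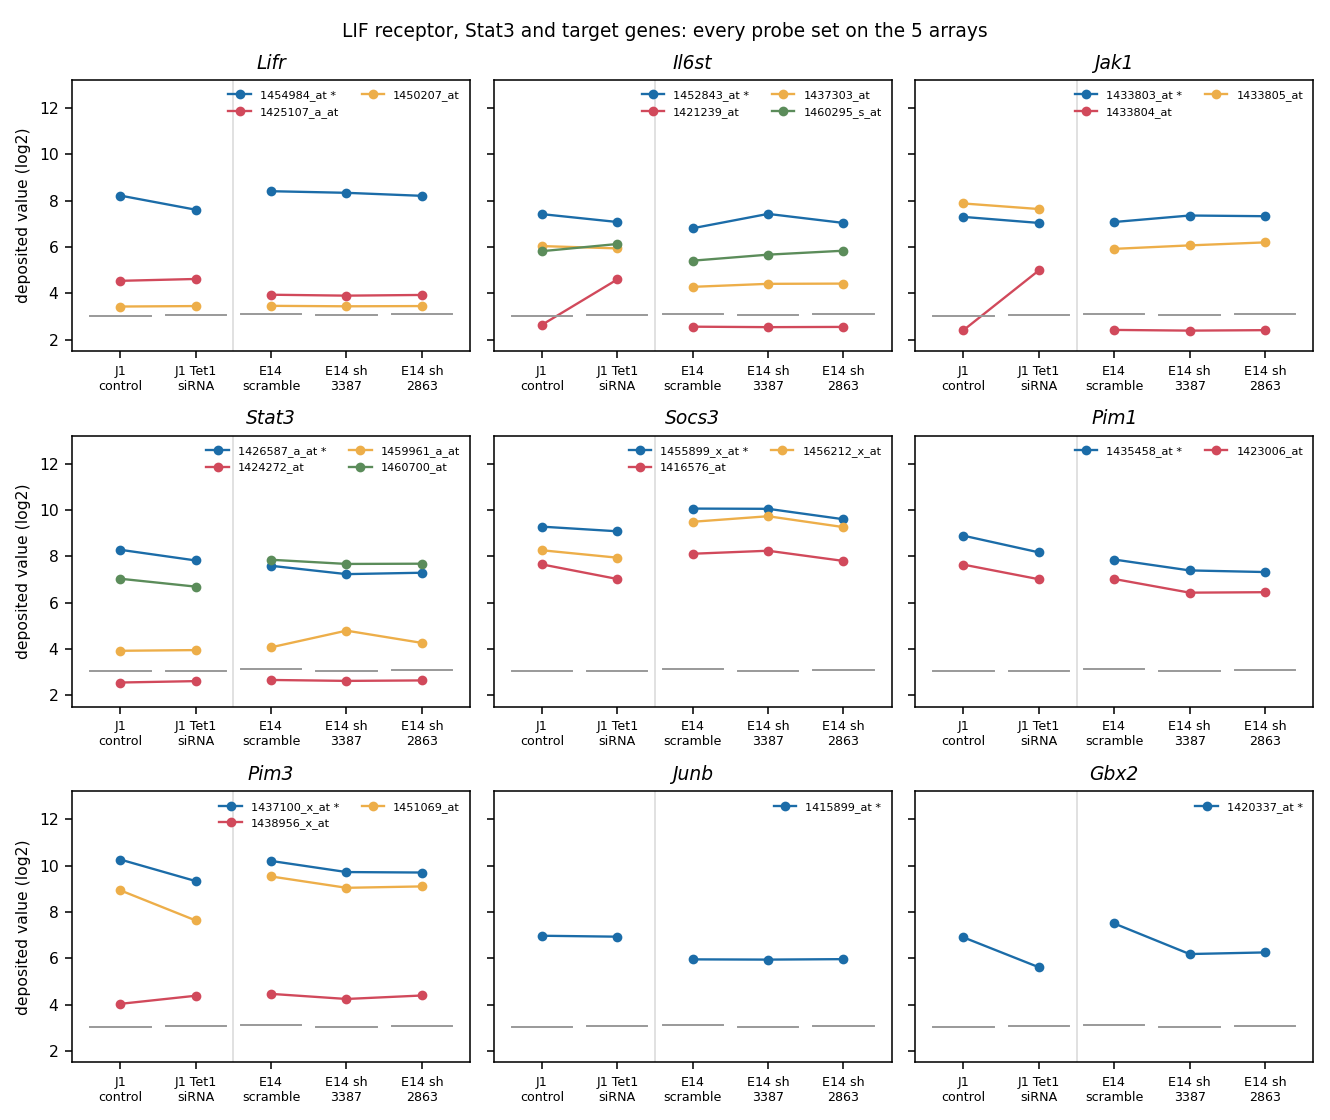
Deposited log2 value (vertical axis) of all 24 probe sets on the 5 arrays (horizontal axis), 1 panel per gene, with points joined within a system. An asterisk marks the brightest probe set of a gene and grey bars the filter level of each array. Gbx2, Pim1 and the 2 bright Pim3 probe sets are among those lower on every depleted array, and Junb differs between systems only.

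Across the 9 genes, Gbx2 was lower by more than 2-fold on each of the 3 depleted arrays, and Pim1, the 2 bright Pim3 probe sets and the brightest Stat3 probe set were lower on all 3, on most arrays by less than 2-fold. The brightest Lifr and Socs3 probe sets and Stat3 1460700_at were lower on all 3 as well, with differences from -0.61 to -0.01. Junb hardly differed between depleted and control arrays, while Jak1 and Il6st were lower in J1 and higher in E14 at their brightest probe sets. In the comparison of systems, Junb, Pim1, 1 probe set each of Il6st, Jak1 and Lifr, and the brightest Stat3 probe set were lower in E14, and Gbx2, 1 Socs3 probe set and a further Stat3 probe set were higher.

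The depletion comparison asked how each gene's level on a Tet1-depleted array stood to its own control. Both hairpin arrays share the single scramble array, so their differences are not independent of each other. The limma fit over all 5 arrays, with 1 term for system and 1 for depletion and 2 residual degrees of freedom, estimated a depletion effect that both systems share. It is two-sided, adjusted by Benjamini-Hochberg over all 29001 probe sets at a threshold of 0.05. No probe set passed, members and the depleted gene Tet1 included, and the background is 0.0%. A missing call in this fit therefore does not show that a level was unchanged. The lowest adjusted p was 0.754 in that fit, and 1732 probe sets had an unadjusted p under 0.05. Errors in these fits come from the scatter of single arrays around the model and may be technical.

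Lifr, the receptor chain that binds LIF, read 8.22 on the J1 control array and 7.61 after Tet1 siRNA at its brightest probe set, 1454984_at. In E14 the values were 8.41 with scramble, 8.34 with shRNA3387 and 8.21 with shRNA2863. The J1 Tet1 siRNA array was thus the lowest of the 5, at 1.53-fold under its control, and the E14 arrays differed by -0.07 and -0.20 from scramble. The pooled depletion effect was -0.34 ± 0.16 (SE, 5 arrays), with an unadjusted p of 0.106 in limma. It was -0.61 without the scramble array and -0.135 without either J1 array. The dim probe sets 1425107_a_at and 1450207_at differed from their controls by at most 0.08 in either direction.

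Il6st encodes gp130, the signalling chain that LIF shares with interleukin 6 and related cytokines. Its brightest probe set, 1452843_at, read 7.42 in the J1 control and 7.08 after Tet1 siRNA, and 6.81, 7.43 and 7.04 on the scramble, shRNA3387 and shRNA2863 arrays. It was lower than control in J1 and higher in E14, with differences of -0.34, 0.62 and 0.23, and depleted and control arrays overlapped. A second probe set, 1460295_s_at, was higher on all 3 depleted arrays, at 6.13 against 5.82 in J1 and at 5.67 and 5.84 against 5.41 in E14. Its pooled effect of 0.33 ± 0.10 (SE, 5 arrays) had an unadjusted p of 0.0388 in limma and an adjusted p of 0.754. The probe set 1437303_at differed by -0.10, 0.13 and 0.14, so the probe sets of Il6st disagree in sign in J1.

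Jak1, the kinase that docks on gp130, read 7.30 and 7.04 in J1 and 7.08, 7.36 and 7.33 in E14 at 1433803_at, its brightest probe set over the 5 arrays. The depleted array was lower in J1 and both depleted arrays were higher in E14, with differences of -0.26, 0.28 and 0.25. The probe set 1433805_at had the same signs against control, with differences of -0.24, 0.15 and 0.28. Neither showed a common depletion effect beyond its error, the first at 0.04 ± 0.16 (SE, 5 arrays), and the sign of that estimate turned without the scramble or the shRNA3387 array.

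One probe set each of Jak1 and Il6st stood out on a single array. Jak1 1433804_at read 4.99 after Tet1 siRNA in J1 and 2.39 to 2.42 on the other 4 arrays. Il6st 1421239_at read 4.60 on the same array and 2.54 to 2.64 elsewhere. Both lay above the filter on that array alone, so no fold is given, while the other Jak1 probe sets were lower there and the other Il6st probe sets ran from -0.34 to 0.31. In all, 48 of 45037 probe sets lay 2-fold or more above the filter on the J1 Tet1 siRNA array only, against 14, 3, 16 and 0 on the J1 control, scramble, shRNA3387 and shRNA2863 arrays, by a rule chosen after these values were seen. As they passed the filter through that array only, the counts by fold below leave them out.

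Stat3, the transcription factor that the kinases activate, read 8.28 and 7.82 on the J1 control and Tet1 siRNA arrays at its brightest probe set, 1426587_a_at. The E14 values were 7.59 with scramble, 7.23 with shRNA3387 and 7.29 with shRNA2863. Each depleted array lay below its own control, at -0.46, -0.36 and -0.30, although the J1 depleted array stayed above every E14 array. The pooled effect was -0.39 ± 0.10 (SE, 5 arrays) with an unadjusted p of 0.0204 and an adjusted p of 0.754 in limma. A second probe set, 1460700_at, had the same signs with smaller sizes, -0.34, -0.18 and -0.17. The dim 1459961_a_at was higher instead, by 0.03, 0.72 and 0.19, and 1424272_at lay below the filter on all arrays. The median level over all Stat3 probe sets was 0.18 higher on the shRNA3387 array than on scramble. That median mixes probe sets of unlike brightness and is not a median of their differences.

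Socs3, the Stat3-induced inhibitor that blocks Janus kinases at gp130, was measured by 3 probe sets. At 1455899_x_at it read 9.28 and 9.08 in J1 and 10.06, 10.05 and 9.60 in E14. The depleted arrays were lower, at -0.20, -0.01 and -0.46, and the pooled effect of -0.22 ± 0.17 (SE, 5 arrays) had an unadjusted p of 0.272 in limma and ran from -0.33 to -0.105 when single E14 hairpin arrays were left out. At 1416576_at and 1456212_x_at the J1 and shRNA2863 arrays were lower, at -0.63 and -0.31 and at -0.32 and -0.23, and the shRNA3387 array was higher, by 0.13 and 0.24. The 3 Socs3 probe sets thus share a sign in J1 and with shRNA2863 and not with shRNA3387.

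Pim1, a serine/threonine kinase gene induced by Stat3, was lower on every depleted array at both of its probe sets. The brighter, 1435458_at, read 8.89 in the J1 control and 8.17 after Tet1 siRNA, and 7.86 with scramble, 7.39 with shRNA3387 and 7.32 with shRNA2863. These are 1.65-fold, 1.39-fold and 1.45-fold lower signals, and the pooled effect was -0.60 ± 0.11 (SE, 5 arrays) with an unadjusted p of 0.00681 in limma. The other, 1423006_at, read 7.64 and 7.01 in J1 and 7.02, 6.43 and 6.45 in E14, or 1.55-fold, 1.51-fold and 1.48-fold lower. Each depleted array lay below its own control, although at the first probe set the J1 Tet1 siRNA array stayed above E14 scramble. The adjusted p of both was 0.754.

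Pim3, a kinase gene of the same family, was lower on every depleted array at 2 of its 3 probe sets. At 1437100_x_at it read 10.26 and 9.33 in J1 and 10.20, 9.72 and 9.70 in E14. The J1 difference was 1.91-fold and the E14 differences were 1.39-fold and 1.41-fold, all lower, and every depleted array lay below both controls. At 1451069_at the values were 8.93 and 7.63 in J1 and 9.53, 9.04 and 9.10 in E14, or 2.46-fold, 1.40-fold and 1.35-fold lower, and here both E14 depleted arrays stayed above the J1 control. Pooled effects were -0.68 ± 0.13 (SE, 5 arrays) and -0.82 ± 0.23 (SE, 5 arrays), with unadjusted p of 0.00906 and 0.0301 and an adjusted p of 0.754 in limma. At 1451069_at the estimate was -1.30 without the scramble array and -0.46 without either J1 array. The dim 1438956_x_at disagreed, with differences of 0.35, -0.22 and -0.07.

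Junb, a subunit of the AP-1 transcription factor, read 6.97 and 6.93 in J1 and 5.95, 5.94 and 5.96 in E14 at its only probe set, 1415899_at. No depleted array differed from its control by more than 0.04. Its pooled effect of -0.02 ± 0.09 (SE, 5 arrays) had an adjusted p of 0.991 in limma.

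Gbx2, a homeobox transcription factor gene that can sustain self-renewal downstream of Stat3, had 1 probe set, 1420337_at. It read 6.90 on the J1 control array and 5.61 after Tet1 siRNA. In E14 it read 7.50 with scramble, 6.18 with shRNA3387 and 6.25 with shRNA2863. All 3 depleted arrays lay below both control arrays, by 2.45-fold, 2.50-fold and 2.38-fold against their own controls. The pooled effect was -1.29 ± 0.09 (SE, 5 arrays), with an unadjusted p of 0.000316 and an adjusted p of 0.754 in limma. Of 29001 probe sets, 8 were 2-fold or more lower on all 3 depleted arrays, a background of 0.0276%, and Gbx2 was the 1 member among them. The difference between the systems in this effect was 0.005 ± 0.14 (SE, 5 arrays), with an unadjusted p of 0.974.

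**Figure D2:**
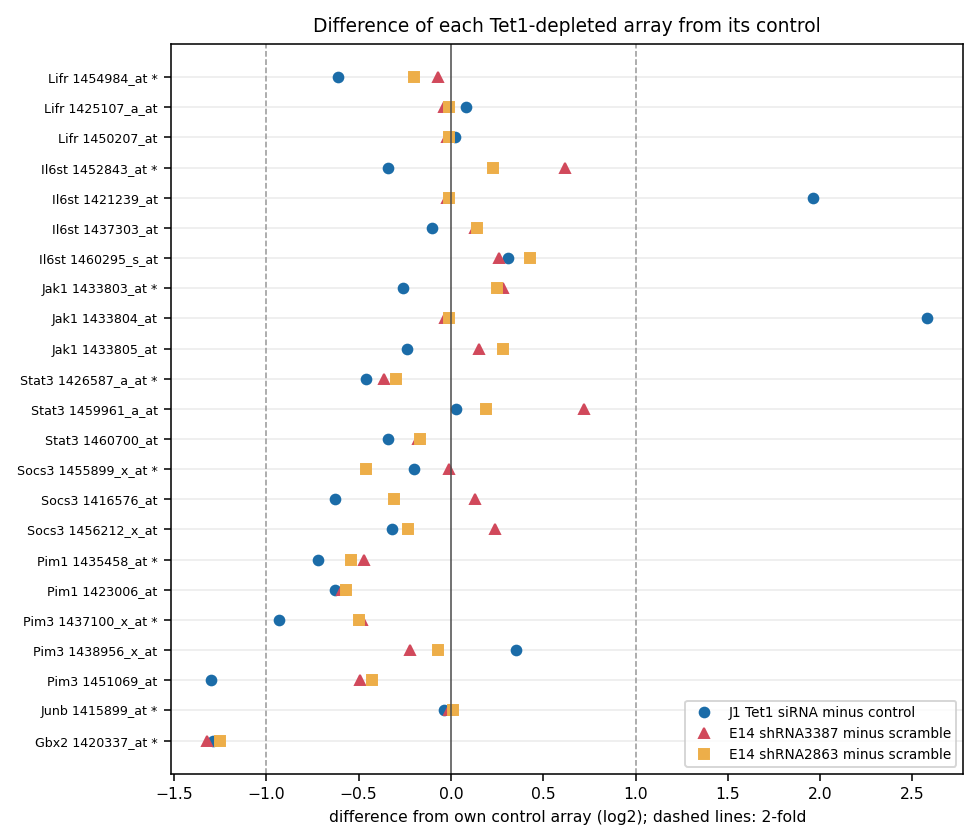
Difference of each Tet1-depleted array from its own control (horizontal axis, log2) for the 23 probe sets that passed the filter (vertical axis), with 1 symbol per depleted array and dashed lines at 2-fold. Gbx2 lies beyond the lower line for all 3 symbols, and 1 probe set each of Jak1 and Il6st lies beyond the upper line in J1 only.

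Over the 21 probe sets above the filter on all arrays, counts were set against the background of all tested probe sets. That background includes probe sets above the filter on fewer arrays. Members and background are therefore not filtered alike in any count out of 21, here or below. The 2 member probe sets left out were higher after Tet1 siRNA in J1. In J1, 2 of 21 were 2-fold or more lower (Gbx2 and Pim3 1451069_at), where the background is 1.04%, and 7 were 1.5-fold or more lower, where it is 5.61%. None of the 21 was 2-fold or more higher in J1, where the background is 1.92%. These 7 were Lifr, both Pim1 probe sets, both bright Pim3 probe sets, 1 Socs3 probe set and Gbx2. With shRNA3387, 1 of 21 was 2-fold or more lower (background 0.61%) and 2 were 1.5-fold or more lower (3.22%), namely Gbx2 and Pim1 1423006_at. Another 2 were 1.5-fold or more higher (6.91%), an Il6st and a Stat3 probe set. With shRNA2863, Gbx2 alone was 2-fold lower (0.555%) and also the only one 1.5-fold lower (3.13%). Median differences over the 21 were -0.32, -0.02 and -0.17 for J1, shRNA3387 and shRNA2863, beside 0.01, -0.02 and -0.01 over all tested probe sets. Over the brightest probe set of each gene, 9 of 9 were lower in J1 with a median of -0.46, 7 of 9 with shRNA3387 with a median of -0.07, and 6 of 9 with shRNA2863 with a median of -0.30. Over all 13619 genes, 50.4%, 56.9% and 55.1% were lower on these arrays, with medians of -0.01, -0.02 and -0.01. The 7 embryonic stem cell markers also had a median of -0.46 in J1, and of -0.10 and -0.02 with the hairpins, and their part in these counts was not tested. In the limma fit, 6 of 23 probe sets had an unadjusted p under 0.05 and a lower level, where the background is 2.96%, and 1 had a higher one, where it is 3.01%. The 6 were Gbx2, both Pim1, both bright Pim3 and the brightest Stat3 probe set, and all of them are without an adjusted call.

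Whether the depletion effect differed between E14 and J1 was tested with limma on the 4 means of system and depletion, which leaves 1 residual degree of freedom. That degree comes from the hairpin arrays, and each lone array is assumed to vary as they do. No probe set passed the adjusted threshold (background 0.0%, lowest adjusted p 0.17). Of the 21 member probe sets above the filter on all arrays, 3 had an unadjusted p under 0.05, where the background is 18.3%. The members' share is thus not above that of all tested probe sets. The 3 were both bright Pim3 probe sets, whose J1 differences were the larger, and the brightest Jak1 probe set. For Pim3 the E14 effect minus the J1 effect was 0.44 ± 0.09 (SE, 5 arrays) at 1437100_x_at and 0.84 ± 0.12 (SE, 5 arrays) at 1451069_at, with unadjusted p of 0.0335 and 0.0173. For Jak1 1433803_at it was 0.525 ± 0.13 (SE, 5 arrays), with an unadjusted p of 0.0498.

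A further comparison set the levels in E14 against those in J1. With the depletion term in the model, 10 of 23 member probe sets passed the adjusted threshold for E14 against J1, where the background is 14.7%. Of these, 7 were lower in E14 (background 9.32%) and 3 higher (5.37%), and 8 of 9 genes had such a probe set, all but Pim3. Over all genes 21.8% had one, but the members have a median of 3 kept probe sets and all genes a median of 1. Among genes with 2 or more, the share was 36.1%. With 1 probe set per gene in the fit, 4 of 9 members were called, against 14.2% of 13619 genes. The two-term fit assumes the same depletion effect in both systems, and with 2 residual degrees of freedom the calls lean on the shared variance of all probe sets. Leaving out the J1 Tet1 siRNA array, shRNA3387 or shRNA2863 ended all 10 calls. Leaving out the J1 control or the scramble array ended all of them but Il6st 1437303_at, whose estimate was -1.525 in both cases. In both cases the system estimate reduces to the hairpin arrays against the J1 Tet1 siRNA array. Any member call outside the 10 then rests on that lone J1 array, where Jak1 1433804_at and Il6st 1421239_at stood out. Line, feeders and handling cannot be told apart in any call between the systems.

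Junb was lower in E14, with an estimate of -0.997 ± 0.09 (SE, 5 arrays) and an adjusted p of 0.0175 in limma, and its control arrays differed 2.03-fold. All 3 E14 arrays lay between 5.94 and 5.96, below both J1 arrays. Pim1 was lower at both probe sets, with estimates of -0.91 ± 0.11 (SE, 5 arrays) and -0.59 ± 0.09 (SE, 5 arrays), with adjusted p of 0.0241 and 0.0377 in limma. The second Pim1 call was lost with quantile normalization, at an adjusted p of 0.0668, and with no filter, at 0.0577. Quantile normalization also brought the differences between the control arrays under 2-fold, to -0.78 for Junb and -0.91 for Pim1.

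Gbx2 was higher in E14, by 0.60 ± 0.09 (SE, 5 arrays) with an adjusted p of 0.0373 in limma, and of 0.0579 with no filter. E14 scramble was the highest of the 5 Gbx2 values and J1 Tet1 siRNA the lowest. Socs3 was higher at 1456212_x_at, by 1.42 ± 0.20 (SE, 5 arrays) with an adjusted p of 0.0323, and the control arrays differed 2.35-fold. The other Socs3 probe sets had estimates of 0.76 ± 0.17 (SE, 5 arrays) and 0.77 ± 0.23 (SE, 5 arrays) with adjusted p of 0.0726 and 0.121. At all 3 Socs3 probe sets the E14 arrays lay above both J1 arrays. Pim3 had no call, with adjusted p of 0.398 and 0.0689 at its bright probe sets.

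Stat3 probe sets were called in opposite directions. The brightest, 1426587_a_at, was lower in E14 with an estimate of -0.62 ± 0.10 (SE, 5 arrays) and an adjusted p of 0.0386 in limma, and of 0.0513 with quantile normalization and 0.0556 with no filter. The probe set 1460700_at was higher by 0.91 ± 0.10 (SE, 5 arrays) with an adjusted p of 0.0221. In both, J1 and E14 arrays did not overlap. No single direction can therefore be given for Stat3 between the systems.

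The receptor and kinase genes split by probe set as well. Il6st 1437303_at was 3.39-fold lower on the E14 than on the J1 control array, and its system estimate was -1.63 ± 0.10 (SE, 5 arrays) with an adjusted p of 0.0127 in limma. Jak1 1433805_at was 3.89-fold lower between the controls, with an estimate of -1.70 ± 0.16 (SE, 5 arrays) and an adjusted p of 0.0179. At the brightest probe sets of the same genes the estimates were -0.17 ± 0.26 (SE, 5 arrays) for Il6st and 0.08 ± 0.16 (SE, 5 arrays) for Jak1, with adjusted p of 0.692 and 0.781. Lifr was lower in E14 at the dim 1425107_a_at, with an estimate of -0.66 ± 0.07 (SE, 5 arrays) and an adjusted p of 0.0213, and had an estimate of 0.46 ± 0.16 (SE, 5 arrays) with an adjusted p of 0.157 at its brightest probe set. Between the control arrays alone, 4 of the 21 probe sets were 2-fold or more lower in E14, where the background is 7.47%, and 1 was higher, where it is 3.37%.

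**Figure D3:**
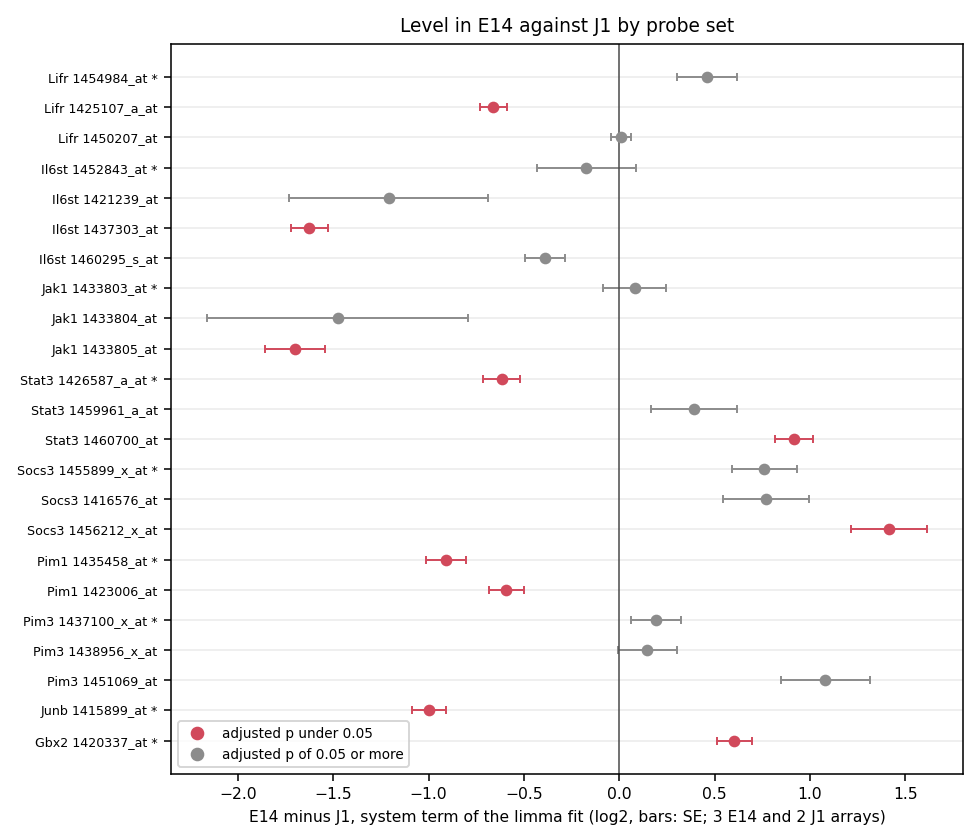
Estimated difference of E14 from J1 (horizontal axis, log2, bars give the SE of the limma fit on 3 E14 and 2 J1 arrays) for the 23 probe sets (vertical axis), with adjusted p under 0.05 in red. The 10 red points fall on both sides of 0, and the 2 red Stat3 points lie on opposite sides.

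The remaining genes of the pathway were taken from a list of 55, covering ligands, receptors, kinases and adaptors, inhibitors, and other responsive genes. Of these, 51 had a probe set of their own and 48 passed the filter. Their median differences were -0.02, -0.04 and -0.01 for J1, shRNA3387 and shRNA2863, close to those of all probe sets. None had an adjusted call for depletion, and 4 of 48 had an unadjusted p under 0.05, where the share over all genes is 6.42%. Among the 18 responsive genes kept, the J1 median was -0.27, with 2 at least 2-fold and 7 at least 1.5-fold lower, where the shares over all genes are 1.1% and 6.09%. With shRNA3387 and shRNA2863 their medians were -0.08 and -0.02, with 0 at least 2-fold lower and 1 and 2 at least 1.5-fold lower. The shares over all genes are 0.653% and 0.609% at 2-fold and 3.36% and 3.26% at 1.5-fold. In J1, 3 of 48 were 2-fold or more lower, namely Tcl1, Egr1 and Stat2, beside 1.1% of all genes. With shRNA3387 and shRNA2863, 0 of 48 were, beside 0.653% and 0.609% of all genes. Tcl1, a cofactor of the Akt kinase, read 7.82 and 6.36 in J1 and 8.34, 7.69 and 7.68 in E14, lower on each depleted array as Gbx2 and Pim1 were. Stat2, a STAT of interferon signalling, read 4.62 and 3.60 in J1 and 3.61, 3.56 and 2.64 in E14. Its shRNA2863 value lay below the filter level of 3.09 on that array, and the readings of 3.56 to 3.61 were near the filter. Egr1, an immediate early gene, read 7.67 and 6.30 in J1 but 7.72, 7.81 and 8.19 in E14. Klf4, a pluripotency factor induced by Stat3, read 8.97 and 8.10 in J1 and 10.71, 10.63 and 10.63 in E14, so that the depleted array was lower in J1 and the E14 arrays stood close together.

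Between the systems, 2 of the 48 were higher in E14 at the adjusted threshold, Klf4 and Smad7, and 7 were lower, Jak2 and Cebpd among them, where the shares over all genes are 5.85% and 7.31%. Smad7 is named here after its values were seen. Klf4 had the largest of these estimates, 2.19 with an adjusted p of 0.019 in limma. Jak2, a kinase of the same family as Jak1, read 6.24 and 6.55 in J1 and 5.24, 5.21 and 5.28 in E14. Cebpd, a transcription factor gene of the C/EBP family, read 5.95 and 6.19 in J1 and 4.81, 5.25 and 4.75 in E14. Lif itself read 3.13 to 3.89 on the 5 arrays, near the filter level, and the transcription factor gene Tfcp2l1 read 8.46 and 7.65 in J1 and 8.23, 7.86 and 8.37 in E14.

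**Figure D4:**
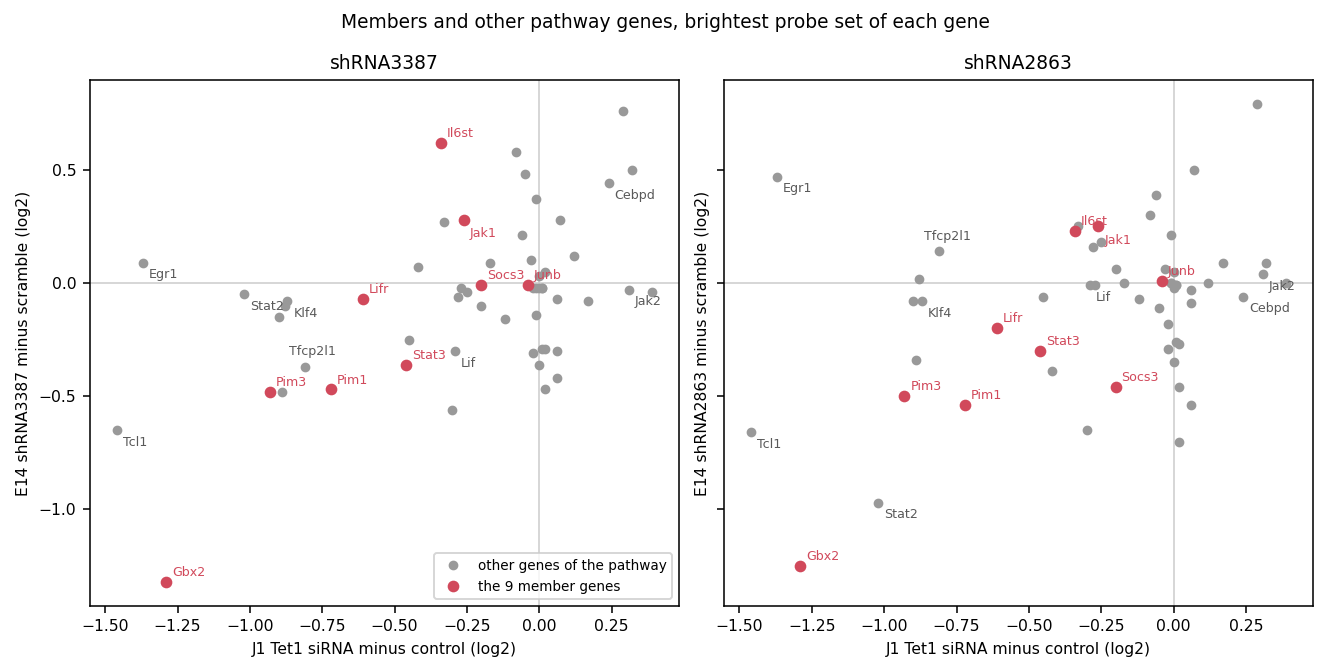
Difference of the E14 shRNA3387 array (left) or shRNA2863 array (right) from scramble (vertical axes, log2) against the difference of the J1 Tet1 siRNA array from its control (horizontal axes, log2), for the brightest probe set of the 9 genes in red and of the other pathway genes in grey. Gbx2 lies lowest in both panels, at -1.29 in J1 and at -1.32 and -1.25 in E14.

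For the 4 genes whose brightest probe set spanned at least 1 log2 unit over the arrays, the genes with the most similar profile over the 5 arrays were found by the root mean square difference of log2 values centred on each gene's mean. Mras, a small GTPase of the Ras family, was closest to Gbx2 at 0.109, where the median over all genes is 0.660, and it was lower, at -1.15, -1.50 and -1.21 on the depleted arrays. Vmac and Marf1 followed at 0.123 and 0.199. Smpdl3b, Fxr2 and Slc38a7 were closest to Stat3, at 0.035, 0.0453 and 0.0574. Ap1g1, Mfsd14b and Alg2 were closest to Junb, at 0.0271, 0.0403 and 0.0407. Myh6, Slc12a4 and Akap2 were closest to Pim1, at 0.0575, 0.0821 and 0.0848. These values describe 5 arrays and carry no test.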

How the data were processed

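Total RNA of 5 mouse embryonic stem cell samples was labelled with biotin and hybridised to Affymetrix arrays, 1 sample per group by the labels. The deposited values are log2 probe set signals, a scale inferred from their range of 1.38 to 14.12. How the authors summarised, background-corrected and normalized the log2 values is not given in the sources used here. They entered the fits as deposited. Of 45101 probe sets, 64 array controls were left out. Platform annotation gave 34945 probe sets 1 symbol, 932 several and 9160 none, and 34741 of the first matched RefSeq of GRCm38.p6 by Entrez identifier with 0 symbols changed.

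Probe sets above the 40th percentile on at least 1 array were fitted with limma 3.58.1 in R 4.3.3 (lmFit, eBayes with a trend) on system and depletion, and on 4 means for the difference of effects. P-values were two-sided, adjusted by Benjamini-Hochberg over the 29001 probe sets. The fits were tested on simulated data. P-values reflect only how single arrays scatter, which may be technical, and 5 arrays limit the precision. With 1 array a group, differences between arrays are given as folds with no test. The brightest probe set by mean stands for a gene where 1 value is given.

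The genes, the pathway and marker lists and the tests were chosen with earlier results of these data known. Named were all member genes, pathway genes at least 2-fold different on a depleted array or between controls (at most 8) with Lif, Jak2, Klf4 and Tfcp2l1, and the 3 closest profiles of each gene that spanned 1 log2 unit. Some genes of the pathway list were not analysed here. Alternatives were quantile normalization, median centring, other filters, 1 probe set or the median per gene, no variance trend, no system term, a 1.5-fold threshold and each array left out.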

Additional observations from a re-analysis of the deposited data

How the results depend on the processing

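The depletion effect and the difference of effects had 0 calls over all probe sets under every alternative run. For the depletion effect this includes Tet1 itself, so the lack of calls does not show a lack of change. Gbx2 was the 1 gene of the 9 that was 2-fold or more lower in each depletion under every scaling, summary and threshold tried. Its pooled estimate lay between -1.31 and -1.27 when single arrays were left out. With so few arrays, estimates without an array are single values or averages of the differences from control given above. They are therefore not an independent check of those differences. Probe sets called between E14 and J1 numbered 4260, and 1930 of 13619 with 1 probe set per gene. Leaving out single arrays gave 0 to 1925 calls, with 0 without the J1 Tet1 siRNA, shRNA3387 or shRNA2863 array and 1 residual degree of freedom in each. The members among the calls were 10 in the main fit and 4 of 9 with 1 probe set per gene. They were 8 with quantile normalization, beside 4645 of all 29001 probe sets, and 7 with no filter, beside 3477 of 45037. With the 60th percentile they were 12 of 22, beside 5606 of 19841. Of the 9 genes, 2 (Pim1 and Junb) lay 2-fold apart between the control arrays. The count was 0 with quantile normalization, 4 by the median level over the probe sets of a gene and 6 at 1.5-fold. Over all tested probe sets, 7.47% were 2-fold or more lower and 3.37% higher in E14 at the main setting. Shares for the other settings were not computed. Without single arrays, the depletion estimate ran from -0.34 to 0.425 for Il6st and from -0.26 to 0.265 for Jak1. The E14 minus J1 estimate ran from -0.61 to 0.155 for Il6st, from -0.22 to 0.305 for Jak1 and from -0.06 to 0.38 for Pim3, each at the brightest probe set. These signs are therefore not settled, and the cause was not tested. No paired analysis was possible because the labels give no replicate numbers and each group holds 1 array.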
